A study of Mus musculus with 8 samples.

Results

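Type I interferon-stimulated genes, the genes that cells switch on when alpha or beta interferon binds its receptor, were followed through 6 sorted groups of mouse CD8 T cells. The set was a list of 40 gene symbols, and its members were the rows of the deposited expression table that carry those symbols. All 40 were in the table of 15609 genes, and all 40 were among the 15112 genes tested. The list was drawn up by name and not by a threshold on these values, but with earlier results of these data known.

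RNA came from spleen CD8 T cells of wild-type C57BL/6 mice, enriched on anti-CD8 magnetic beads and then sorted. Virtual memory (VM) cells, which look like memory cells but arise without a foreign antigen, were sorted as CD44hi CD49d- and divided by Ly6C and Sca-1. These gave Ly6C+ Sca-1+ VM (2 libraries), Ly6C+ Sca-1- VM (2 libraries), Ly6C- Sca-1+ VM (1 library) and Ly6C- Sca-1- VM (1 library). True memory cells (CD44hi CD49d+) and naive cells (CD44- CD49d-) had 1 library each. The 2 libraries of a replicated group are called A (column without a suffix) and B (column with one). No label says what the suffix marks or whether A and B came from separate mice, so p-values measure only the spread between these libraries. The labels used here give no age, number or treatment of the mice. The titles set the groups, because another label calls every library virtual memory.

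Interferon alpha and beta signal through the receptor chains IFNAR1 and IFNAR2 and the kinases JAK1 and TYK2. A complex that holds STAT2 and IRF9 then enters the nucleus and binds the interferon-stimulated response element (ISRE) in the promoters of target genes. The targets sense viral RNA and DNA, block viral replication, tag proteins with ISG15, or feed back on the pathway. Sca-1 itself, encoded by Ly6a, is induced by interferon in T cells, and Sca-1 was a sort gate here. The comparisons ask how VM subsets split by Sca-1 and by Ly6C differ from each other and from naive and true memory cells.

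Counts ran from 49993407 to 63815914 per library, and the members had between 197 and 34879 counts in a library. T cell markers summed to 4630 to 5567 CPM (counts scaled to library size with TMM factors) in all 8 libraries, and Cd8a lay between 1034 and 1317 CPM. The true memory library stood apart by genes of conventional dendritic cells and MHC class II. Their 9 markers summed to 5158 CPM there and to 46.0 to 348.5 CPM in the other 7 libraries. It also stood apart by monocyte and macrophage markers, whose sum was 732 CPM there and 19.4 to 171.8 CPM in the other 7. No marker was at 0 in any library, since the smallest count in the table was 1.

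Promoter windows from RefSeq (GRCm38.p6, which is mm10) ran from 250 bases before to 50 bases after a gene start and were in the reference table for 33 of the 40 members. Dhx58, Zbp1, Parp9, Parp14, Mx1, Rtp4 and Ifi27l2a had none there. The ISRE core, searched on both strands as GAAA, any 2 bases and GAAA again, was in a window of 19 of the 33 members (57.6%), against 3.99% of the 27025 genes with a window and 3.75% of the tested genes with one. The gamma-activated site core (TTC, any 3 bases and GAA) was in 12.1% of the members with a window and in 9.55% of all genes with one. Members with an ISRE core had a median log2 fold change of 0.23 in Sca-1+ over Sca-1- VM cells, and the 14 without a core had a median of 0.20. A match to these letters describes the sequence and does not show that a factor binds it.

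The stretches below carry the cores of members whose values the results turn on, printed 5′ to 3′ on the strand of the gene, with the ISRE cores in capitals. Isg15 had 3 overlapping cores within chr4:156200855-156200916 on the minus strand, beginning between 78 and 66 bases before the start. The stretch with 2 cores was the same in Ifit3 (chr19:34583353-34583436, plus strand) and Ifit3b (chr19:34607749-34607832, plus strand) of the IFIT cluster on chromosome 19. Bst2 had 2 overlapping cores (chr8:71537567-71537622, minus strand), and its gamma-activated site core overlapped the first of them.
Isg15: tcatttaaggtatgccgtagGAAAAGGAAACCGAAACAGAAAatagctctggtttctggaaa
Ifit3 and Ifit3b: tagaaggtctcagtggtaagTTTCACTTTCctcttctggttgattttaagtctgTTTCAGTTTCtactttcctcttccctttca
Bst2: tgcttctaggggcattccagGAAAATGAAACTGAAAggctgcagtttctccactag
The next stretches hold 1 core each. They are shown for Ifit1bl1 (chr19:34602043-34602092, minus strand), Oas3 (chr5:120777705-120777754, minus strand), Slfn8 (chr11:83020829-83020878, minus strand) and Stat2 (chr10:128270256-128270305, plus strand).
Ifit1bl1: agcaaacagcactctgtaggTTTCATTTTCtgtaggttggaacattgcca
Oas3: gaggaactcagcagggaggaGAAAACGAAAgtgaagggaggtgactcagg
Slfn8: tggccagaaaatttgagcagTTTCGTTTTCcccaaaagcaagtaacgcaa
Stat2: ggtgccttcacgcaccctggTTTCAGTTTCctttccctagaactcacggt
Genes of the p200 and PHF11 clusters are shown to set their stretches side by side. Ifi208 (chr1:173673587-173673636, plus strand) and Ifi213 (chr1:173599316-173599365, minus strand) had the same 50 bases, and Phf11a (chr14:59297523-59297571, minus strand) lies near Phf11b (chr14:59341351-59341400, minus strand).
Ifi208 and Ifi213: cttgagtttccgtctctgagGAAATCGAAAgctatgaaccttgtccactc
Phf11a: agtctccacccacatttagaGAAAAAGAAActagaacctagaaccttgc
Phf11b: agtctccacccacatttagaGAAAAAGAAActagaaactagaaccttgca

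**Figure D1:**
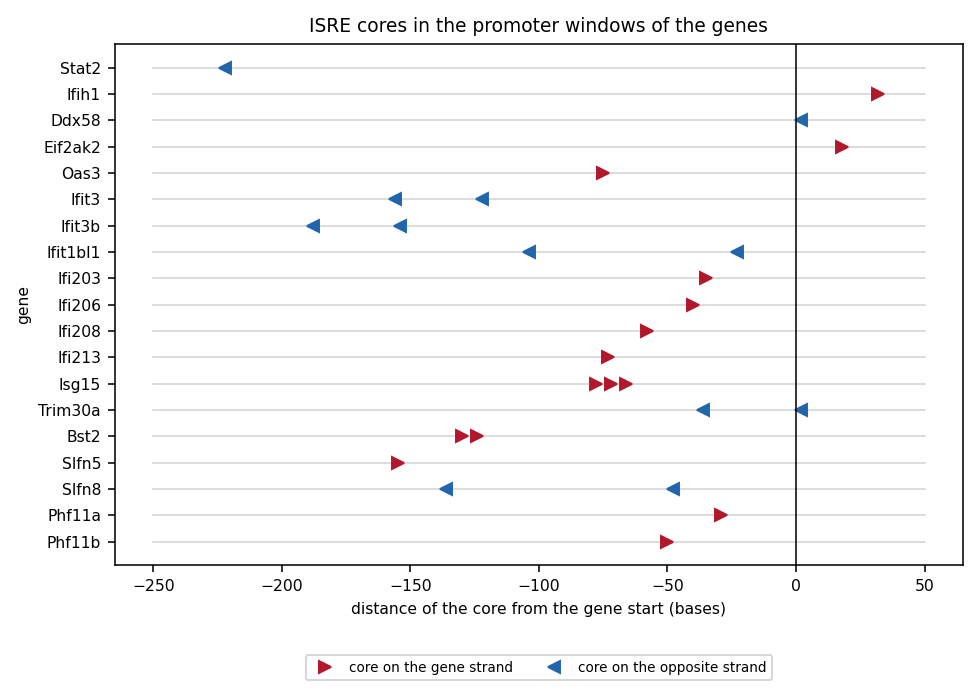
ISRE cores in the promoter windows of the 19 members that had at least 1. The horizontal axis gives the distance of the core's first base from the gene start in bases, each grey line stands for the windows of a gene, measured from each window's own start, red triangles are cores on the strand of the gene and blue triangles cores on the opposite strand. The 3 cores of Isg15 lie next to each other, and the pairs of Ifit3 and Ifit3b have the same spacing.

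All members were detected in every library. Levels can be compared between genes in the deposited TPM values (scaled by transcript length and library size), which were used for the 4 libraries without a replicate. The median over these 4 ran from 3.18 TPM for Phf11d to 452 TPM for Ifi27l2a. The 5 p200 genes of the PYHIN family, nuclear proteins of which some bind DNA, had medians of 154.5 to 229.9 TPM and came next after Ifi27l2a. Viral RNA sensors and the IFIT genes, whose proteins bind viral RNA, lay lower. Of the sensors, Ifih1 had a median of 10.7 TPM, Dhx58 29.8 TPM and Ddx58 65.9 TPM. The IFIT genes Ifit3b, Ifit3 and Ifit1bl1 had medians of 9.47, 34.7 and 56.9 TPM. On the CPM scale, the ratio of the highest to the lowest library had a median of 1.55 over the members, against 1.65 over all tested genes. It was 4.71 for Phf11a, 3.73 for Ifi27l2a and 3.16 for Isg20, the widest of the 40.

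Extreme values fell unevenly over the libraries. Ly6C- Sca-1+ VM had the highest value of 12 members and Ly6C+ Sca-1+ VM B that of 11, against 20.4% and 7.70% of all genes. Ly6C- Sca-1- VM had the lowest value of 15 members and Ly6C+ Sca-1- VM A that of 13, against 12.6% and 9.77% of all genes. None of the 40 was lowest in a Sca-1+ VM library, against 9.2%, 8.15% and 18.8% of all genes (Ly6C+ A, Ly6C+ B and Ly6C-). None was highest in Ly6C- Sca-1- VM or Ly6C+ Sca-1- VM A, against 9.72% and 11% of all genes. Ly6C+ Sca-1- VM B, also a Sca-1- library, had the highest value of 6 members, against 13.4% of all genes. Relative to the mean of the 8 libraries, the members' median deviation on the log2 scale was 0.01, 0.11 and 0.18 in the Sca-1+ VM libraries (Ly6C+ A, Ly6C+ B and Ly6C-). It was -0.15, -0.04 and -0.17 in the Sca-1- VM libraries in the same order, 0.07 in true memory and 0.02 in naive cells.

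**Figure D2:**
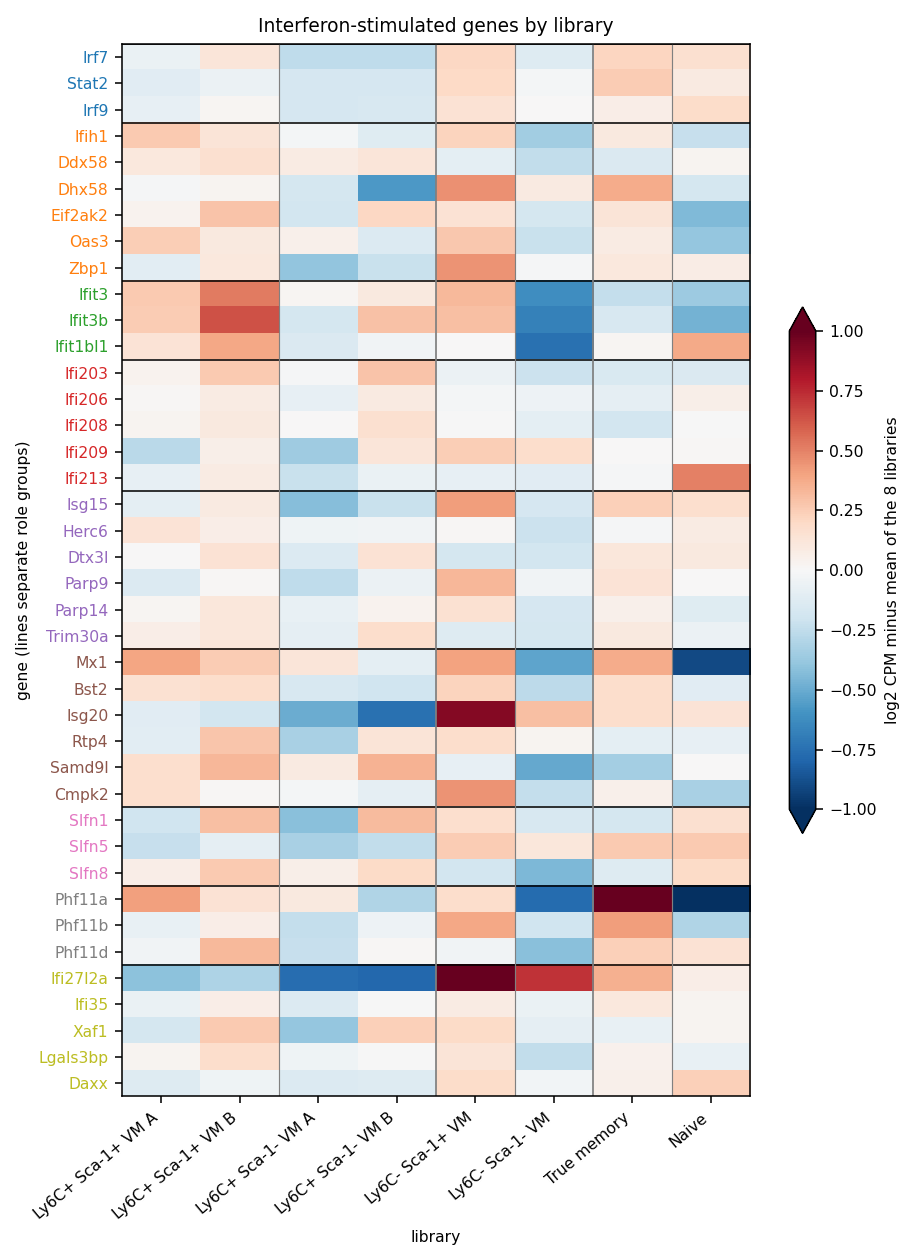
Each row is a member and each column a library. Colour gives log2 CPM minus the mean of the 8 libraries, red above and blue below, and horizontal lines separate role groups. Ly6C- Sca-1- VM is blue in most rows, Ly6C- Sca-1+ VM is red in most, and Ifi27l2a and Phf11a carry the widest spans.

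With all libraries in the fit, the RNA level of each interferon-stimulated gene listed was estimated higher in Sca-1+ than in Sca-1- VM cells. The differences (3 libraries against 3) were small. No single member passed the test in the main fit, which has no block by column suffix. Each group weighs alike in the estimate, so the unreplicated Ly6C- groups count as much as the replicated Ly6C+ groups. Mx1 and Ifit3 differed by 0.93 and 0.94 in the Ly6C- pair, against 0.31 and 0.34 within Ly6C+ cells. The Sca-1 difference was larger in Ly6C- cells for 34 of 40 members. The log2 fold change was positive for 40 of 40 members, against 52.5% of all tested genes, with a median of 0.23 against 0.01 over all genes. Without Ly6C+ Sca-1- A 35 of 40 were positive, and without Ly6C+ Sca-1+ B 39 of 40. Without either Ly6C- library, which leaves the comparison within Ly6C+ cells, 39 were positive with a median of 0.14. The IFIT genes, Mx1, Phf11a and Isg20 had the largest values, between 0.54 and 0.68, and the p200 genes had values of 0.03 to 0.09. By edgeR's quasi-likelihood test 0 of 40 passed an adjusted p of 0.05, as did 0.0265% of all genes (4 of 15112). At an unadjusted p under 0.05 there were 19 members higher and 0 lower, against 6.07% and 3.59% of all genes. DESeq2 called 5 members higher (1.72% of all genes) and limma-voom called 0. In bulk RNA, fewer cells of a type and less RNA per cell cannot be told apart.

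The values of the separate libraries show how small these differences were and in how many libraries they held. For 12 members all 3 Sca-1+ libraries lay above all 3 Sca-1- libraries, which held for 2.75% of all genes, and for 0 members they all lay below (2.28% of all genes). These were Irf7, Ifih1, Oas3, Ifit3, Ifit1bl1, Isg15, Herc6, Mx1, Bst2, Cmpk2, Phf11a and Lgals3bp. In pairs of libraries matched by Ly6C and column suffix, 33 members were higher in Sca-1+ cells in each of the 3 pairs, against 17.4% of all genes. The suffix is not described, so the labels do not give this pairing within Ly6C+ cells. Under either pairing there, Sca-1+ was higher in both Ly6C+ pairs for at least 20 members. For those 20 both Sca-1+ libraries lay above both Sca-1- libraries (14.0% of all genes). By pair, 40 were higher in the Ly6C+ A pair (48.9% of all genes) and 33 in the Ly6C+ B pair (50.8% of all genes). For 0 members was Sca-1+ lower in each pair (15.0% of all genes). The other 7 (Ifi203, Ifi206, Ifi208, Ifi209, Trim30a, Samd9l and Slfn1) were higher in 2 pairs and lower in the Ly6C+ B pair.

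**Figure D3:**
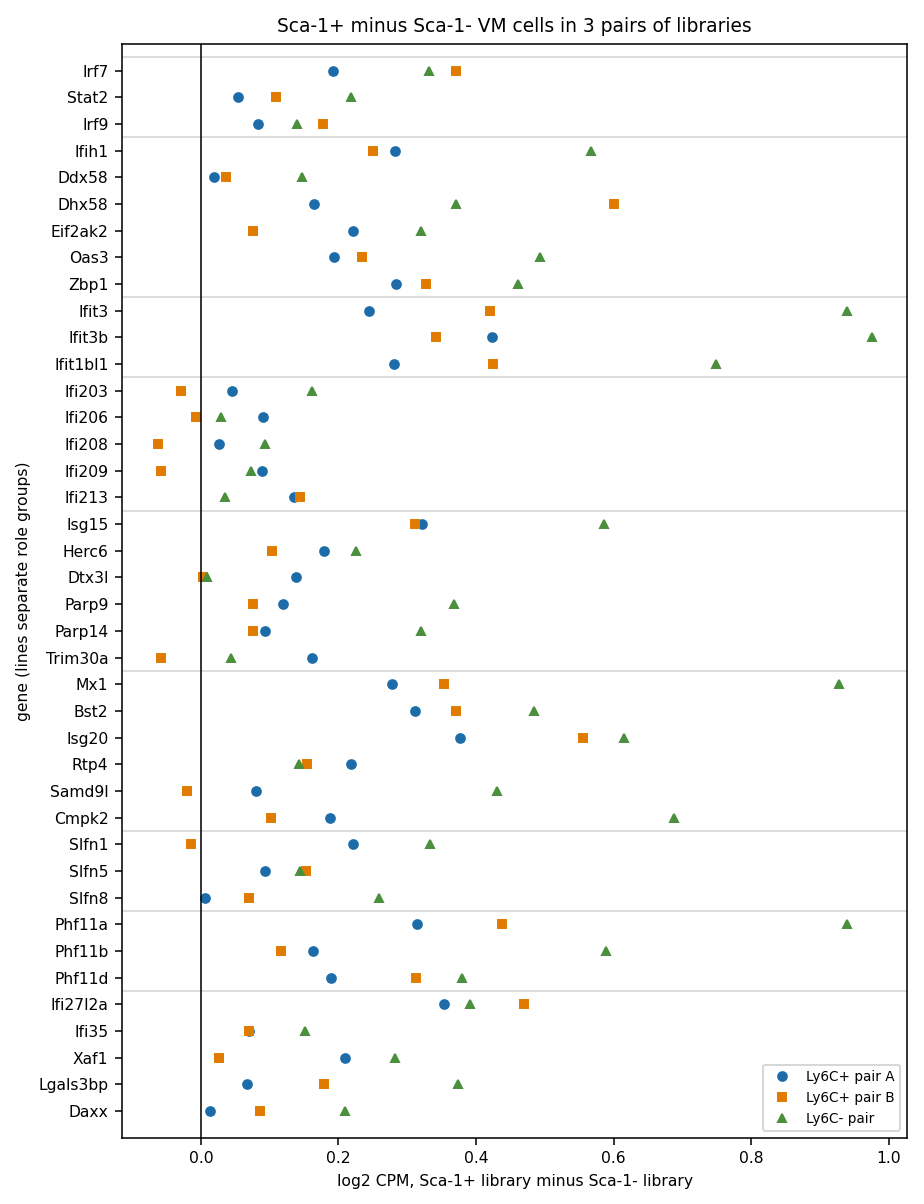
Log2 CPM of a Sca-1+ VM library minus that of the matching Sca-1- VM library (horizontal axis) for each member, with blue circles for the Ly6C+ A pair, orange squares for the Ly6C+ B pair and green triangles for the Ly6C- pair. All 40 circles and all 40 triangles lie right of 0, and 33 of 40 squares do. The triangles of Ifit3, Ifit3b, Mx1 and Phf11a lie farthest right, between 0.93 and 0.98.

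The transcription factors of the pathway had a median log2 fold change of 0.15 in Sca-1+ over Sca-1- VM. Irf7, which amplifies interferon production and the response to it, was at 89.2, 101 and 107 CPM in Sca-1+ VM (Ly6C+ A, Ly6C+ B and Ly6C-), against 78.1, 78.3 and 85.3 CPM in the matching Sca-1- VM libraries. The 2 groups did not overlap, and the log2 fold change was 0.31 ± 0.08 (SE; edgeR adjusted p = 0.29). Stat2 was at 74.7, 77.4 and 92.5 CPM in Sca-1+ VM, against 71.9, 71.7 and 79.5 CPM in Sca-1- VM. Irf9 was at 102, 109 and 119 CPM in Sca-1+ VM, against 96.0, 96.5 and 108 CPM in Sca-1- VM. Stat2 and Irf9 were higher in each pair, but the Ly6C- Sca-1- library reached into the range of the Sca-1+ libraries.

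Among the sensors, Ifih1, which encodes the RNA sensor MDA5, was at 33.9, 31.0 and 33.0 CPM in Sca-1+ VM, against 27.9, 26.1 and 22.3 CPM in Sca-1- VM (0.42 ± 0.10, edgeR adjusted p = 0.22). Oas3, an oligoadenylate synthetase that activates RNase L, was at 121, 109 and 123 CPM in Sca-1+ VM, against 106, 92.8 and 87.7 CPM in Sca-1- VM. Zbp1, a sensor of nucleic acids in the Z form, was at 88.6, 103 and 131 CPM in Sca-1+ VM, against 72.8, 81.8 and 94.9 CPM in Sca-1- VM. The groups were apart for Ifih1 and Oas3 and overlapped for Zbp1, whose Ly6C- Sca-1- value was above that of Ly6C+ Sca-1+ A. Log2 fold changes of the other sensors were 0.37 for Dhx58 (LGP2), 0.23 for Eif2ak2, which encodes the kinase PKR, and 0.09 for Ddx58, which encodes RIG-I.

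The IFIT genes had the largest group median, 0.64. Ifit3 was at 48.2, 57.6 and 50.2 CPM in Sca-1+ VM, against 40.7, 43.0 and 26.2 CPM in Sca-1- VM (0.64 ± 0.10, edgeR adjusted p = 0.12). Ifit1bl1 was at 68.6, 81.9 and 62.8 CPM in Sca-1+ VM, against 56.5, 61.0 and 37.4 CPM in Sca-1- VM (0.55 ± 0.10, edgeR adjusted p = 0.14). Ifit3b was at 13.9, 18.1 and 14.3 CPM in Sca-1+ VM, against 10.3, 14.3 and 7.27 CPM in Sca-1- VM. In all 3 genes the Ly6C- Sca-1- library was the lowest of the 8, and Ly6C+ Sca-1+ B was the highest. Of the 101-base windows in Ifit3 transcripts, 31.3% also occur in Ifit3b, so the division of reads between these copies is uncertain.

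The p200 genes were nearly level across the Sca-1 gate. Ifi203 was at 501, 584 and 469.5 CPM in Sca-1+ VM, against 485, 596 and 420 CPM in Sca-1- VM. Ifi213 was at 341, 382 and 342 CPM in Sca-1+ VM, against 310, 346 and 334 CPM in Sca-1- VM. The 5 log2 fold changes of this family lay between 0.03 and 0.09, and in both Ly6C+ groups library B lay above library A by more than the gene's own Sca-1 difference. Among these genes, 16.6% of the windows of Ifi209 and 13.0% of those of Ifi206 occur in other genes, mostly of the same cluster on chromosome 1.

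In the ISG15 and ubiquitin group, Isg15, a ubiquitin-like protein attached to other proteins, was at 11.3, 12.9 and 16.2 CPM in Sca-1+ VM, against 9.06, 10.4 and 10.8 CPM in Sca-1- VM (0.45 ± 0.13, edgeR adjusted p = 0.35). Herc6, the main ISG15 ligase in mouse, was at 75.4, 71.7 and 69.1 CPM in Sca-1+ VM, against 66.6, 66.8 and 59.1 CPM in Sca-1- VM. The groups of both genes were apart. Parp9, of the ADP-ribosyltransferase family, was at 86.5, 96.1 and 119.6 CPM in Sca-1+ VM, against 79.7, 91.2 and 92.7 CPM in Sca-1- VM, and its groups overlapped. Its log2 fold change was 0.23, that of Parp14 was 0.20, and Dtx3l, which encodes the partner of PARP9, and Trim30a had 0.04 each.

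Antiviral effectors had values of 0.16 to 0.62 in Sca-1+ over Sca-1- VM. Mx1 encodes a GTPase that blocks influenza virus. C57BL/6 mice carry an allele that makes no functional protein, and RefSeq lists the gene as a transcribed pseudogene, so only its RNA is described. It was at 49.5, 44.8 and 49.6 CPM in Sca-1+ VM, against 40.8, 35.1 and 26.1 CPM in Sca-1- VM (0.62 ± 0.10, edgeR adjusted p = 0.12). Bst2, or tetherin, which holds budding virus at the cell surface, was at 47.8, 48.5 and 50.2 CPM in Sca-1+ VM, against 38.5, 37.5 and 35.9 CPM in Sca-1- VM (0.41 ± 0.08, edgeR adjusted p = 0.15). Neither gene overlapped between the 2 groups. Isg20, an RNA exonuclease, was at 9.24, 8.79 and 18.9 CPM in Sca-1+ VM, against 7.10, 5.97 and 12.3 CPM in Sca-1- VM. Its Sca-1 groups overlapped, and both Ly6C- libraries were above all Ly6C+ libraries. The mitochondrial nucleotide kinase gene Cmpk2 had a log2 fold change of 0.42 without overlap, Samd9l, which restricts poxviruses, had 0.23 and Rtp4 had 0.16.

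Of the remaining families, Phf11a, a PHD finger gene, was at 11.1, 9.22 and 9.46 CPM in Sca-1+ VM, against 8.94, 6.80 and 4.91 CPM in Sca-1- VM (0.66 ± 0.18, edgeR adjusted p = 0.29). Phf11b was at 48.4, 53.4 and 66.9 CPM in Sca-1+ VM, against 43.2, 49.2 and 44.5 CPM in Sca-1- VM. Phf11d, the member with the lowest level, was at 3.90, 5.01 and 3.91 CPM in Sca-1+ VM, against 3.41, 4.02 and 3.00 CPM in Sca-1- VM. Phf11a was apart between the groups, and the other 2 overlapped. The Schlafen genes, which encode regulators of lymphocyte growth and of viral RNA, had values of 0.13 to 0.21, and all 3 overlapped between the groups. Slfn1 was at 113, 159 and 145 CPM in Sca-1+ VM, against 96.6, 161 and 115 CPM in Sca-1- VM, so that A and B differed more than the Sca-1 groups. Ifi27l2a had a log2 fold change of 0.40 ± 0.07 (edgeR adjusted p = 0.14), and was higher in each pair. Lgals3bp, a secreted glycoprotein, was at 151, 167 and 162 CPM in Sca-1+ VM, against 144, 148 and 125 CPM in Sca-1- VM (0.25 ± 0.08, edgeR adjusted p = 0.39). The other 3 were at 0.19 for the apoptosis factor Xaf1, 0.13 for the histone chaperone Daxx and 0.11 for Ifi35.

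Within Ly6C+ VM cells alone (2 libraries against 2), 39 of 40 members had a positive log2 fold change in Sca-1+ cells, against 48.4% of all genes, with a median of 0.14. Without Ly6C+ Sca-1- A 28 of 40 were positive (median 0.08, against 52.6% of all genes), and without Ly6C+ Sca-1+ B 31 of 40 (median 0.06, against 50.4% of all genes). Without either of the other 2 libraries all 40 were positive, with a median of 0.20 each time. Both Sca-1+ libraries lay above both Sca-1- libraries for 20 members, against 14.0% of all genes, and below them for 0 (11.3% of all genes). By edgeR 0 of 40 passed (0.00662% of all genes did). At an unadjusted p under 0.05, 8 members were higher and 0 lower, against 3.58% and 0.721% of all genes, and DESeq2 called 0 (1.41% of all genes higher and 0.0662% lower). The Ly6C+ members with the smallest p were Ifi27l2a (0.41 ± 0.08, edgeR adjusted p = 0.22) and Bst2 (0.34 ± 0.09, edgeR adjusted p = 0.39). The difference between libraries of 1 group was of the same size. In Ly6C+ Sca-1+ VM, B over A had a median of 0.14, with 33 of 40 positive against 49.9% of all genes. In Ly6C+ Sca-1- VM the median was 0.12, with 30 of 40 positive against 47.7% of all genes. Over all genes the medians were -0.001 and -0.02. The authors' deposited table had 39 of 40 members above 1-fold in this comparison and 40 of 40 in that of all Sca-1+ with all Sca-1- VM. In neither did a member pass an adjusted p of 0.05 there. Of the 15609 genes of that table, 252 passed within Ly6C+ VM and 7 between all Sca-1+ and all Sca-1- VM.

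Between the 2 Ly6C- libraries (1 against 1, no p-value), all 40 members were higher in Sca-1+ cells, against 53.8% of all genes, with a median log2 difference of 0.33 against 0.03 over all genes. At least 1.5-fold higher were 9 members, against 7.25% of all genes: Ifit3, Ifit3b, Ifit1bl1, Isg15, Mx1, Isg20, Cmpk2, Phf11a and Phf11b. At least 1.5-fold lower were 0 members, against 8.93% of all genes. Mx1 was at 49.6 CPM in Ly6C- Sca-1+ VM, against 26.1 CPM in Ly6C- Sca-1- VM, and Ifit3 was at 50.2 against 26.2 CPM in the same order. In a test of whether the Sca-1 difference was larger in Ly6C- than in Ly6C+ cells, 34 of 40 members had a positive value (53.4% of all genes) with a median of 0.16. That became 27 of 40 with a median of 0.10 without Ly6C+ Sca-1+ A, and 39 of 40 with a median of 0.24 without Ly6C+ Sca-1+ B. By edgeR 0 of 40 members and 0% of all genes passed that test, and DESeq2 called 0 members (0.0860% of all genes higher and 0.172% lower). At an unadjusted p under 0.05, 4 members were higher and 0 lower, against 1.69% and 3.39% of all genes. These 4 were Mx1 (0.62 ± 0.20), Ifit3 (0.60 ± 0.20), Cmpk2 (0.54 ± 0.21) and Phf11b (0.45 ± 0.18).

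Several lists of markers of other cells were also mostly positive in Sca-1+ over Sca-1- VM. All 11 monocyte and macrophage markers had positive log2 fold changes in Sca-1+ over Sca-1- VM (median 1.35), and their sum was 124, 172 and 124 CPM in Sca-1+ VM, against 39.7, 19.4 and 90.0 CPM in Sca-1- VM. Csf1r, the receptor that defines these cells, was at 36.7, 51.8 and 25.6 CPM in Sca-1+ VM, against 6.17, 1.23 and 16.5 CPM in Sca-1- VM. All 5 erythroid markers (median 1.86), 4 of 4 plasma cell markers (median 0.49) and 3 of 4 CD4 T cell markers (median 1.53) were positive too, while T cell markers were positive in 6 of 8 (median 0.10). B cell markers were positive in 1 of 5 (median -0.11) and NK cell markers in 1 of 3 (median -0.50). Dendritic cell and MHC class II markers were positive in 7 of 9 over all Sca-1+ against Sca-1- VM (median 0.10) and in 0 of 9 in the Ly6C- pair. In that pair plasma cell markers summed to 34.2 CPM in Sca-1+ and 10.8 CPM in Sca-1- VM, CD4 T cell markers to 63.3 CPM in Sca-1+ and 21.6 CPM in Sca-1- VM, and erythroid markers to 35.4 CPM in Sca-1+ and 13.0 CPM in Sca-1- VM. The part of these markers in the members' differences was not tested.

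Without A of the Ly6C+ Sca-1- group, edgeR called 10 members higher in Sca-1+ than in Sca-1- VM, and without B it called 8. Each fit takes the spread of the library left alone from the other groups. Genes called over the whole table were then 541 and 502, against 4 with all 8 libraries.

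Between Ly6C+ and Ly6C- VM cells (4 libraries against 2) some interferon-stimulated genes were higher and others lower, at a rate close to that of all genes. By edgeR 9 of 40 members (22.5%) passed, 5 higher and 4 lower in Ly6C+ cells, near the 21.4% of all genes that did (8.88% higher and 12.6% lower). The median log2 fold change was 0.03, against 0.00 over all genes, and 23 of 40 members were positive, against 50.2% of all genes. The sign of the median differed between the Sca-1 gates. When a Ly6C- library was left out, only the groups of the other Sca-1 gate were compared. Without Ly6C- Sca-1+, Ly6C+ Sca-1- over Ly6C- Sca-1- VM had a median of 0.15 with 25 positive. Without Ly6C- Sca-1-, Ly6C+ Sca-1+ over Ly6C- Sca-1+ VM had a median of -0.06 with 16 positive. Samd9l, Slfn8, Ifit1bl1, Ifit3 and Ddx58 were higher in Ly6C+ cells, and Ifi27l2a, Isg20, Slfn5 and Zbp1 were lower.

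Ifi27l2a (Gene ID 76933, chromosome 12, 103433873 to 103443680), of the ISG12 family, had the widest difference. The Ly6C+ libraries had 50.4 and 54.0 CPM with Sca-1 and 39.4 and 38.9 CPM without it, against 145 and 111 CPM in the Ly6C- libraries with and without Sca-1. It fell by 1.49 on the log2 scale (SE 0.07, edgeR adjusted p = 0.00037), and all 4 Ly6C+ libraries lay below naive cells (70.0 CPM) and true memory cells (85.7 CPM). Isg20 (Gene ID 57444, chromosome 7, 78913396 to 78920396) was at 9.24, 8.79, 7.10 and 5.97 CPM in the Ly6C+ libraries, against 18.9 and 12.3 CPM in the Ly6C- libraries. It fell by 0.99 (SE 0.13, edgeR adjusted p = 0.0057). The groups of both genes were apart, and both stayed under an adjusted p of 0.05 in all 13 alternative analyses.

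Slfn5 (Gene ID 327978, chromosome 11, 82951349 to 82964850) was at 73.8, 81.3, 69.2 and 73.1 CPM in the Ly6C+ libraries, against 103 and 93.3 CPM in the Ly6C- libraries (-0.40 ± 0.08, edgeR adjusted p = 0.018). Its family member Slfn8 (Gene ID 276950, chromosome 11, 83002125 to 83020810) went the other way, at 135, 154, 134 and 147 CPM in the Ly6C+ libraries, against 113 and 94.5 CPM in the Ly6C- libraries (0.46 ± 0.09, edgeR adjusted p = 0.019). Both genes were apart between the groups and lie in the same cluster on chromosome 11. Zbp1 (Gene ID 58203, chromosome 2, 173206612 to 173218959) was lower by -0.37 ± 0.09 (edgeR adjusted p = 0.039), and its groups overlapped.

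Samd9l (Gene ID 209086, chromosome 6, 3372257 to 3399571) was at 283, 316, 268 and 321 CPM in the Ly6C+ libraries, against 238 and 176 CPM in the Ly6C- libraries (0.54 ± 0.11, edgeR adjusted p = 0.020). Ddx58 (Gene ID 230073, chromosome 4, 40203777 to 40239825) was at 184, 191, 181 and 186 CPM in the Ly6C+ libraries, against 160 and 144 CPM in the Ly6C- libraries (0.29 ± 0.08, edgeR adjusted p = 0.045). These 2 genes were apart between the groups. Ifit1bl1 (Gene ID 667373, chromosome 19, 34592888 to 34662981; 0.46 ± 0.10, edgeR adjusted p = 0.025) and Ifit3 (Gene ID 15959, chromosome 19, 34583119 to 34588982; 0.38 ± 0.10, edgeR adjusted p = 0.049) overlapped. For both, the Ly6C- Sca-1+ library was within the Ly6C+ range and the Ly6C- Sca-1- library was far below it.

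**Figure D4:**
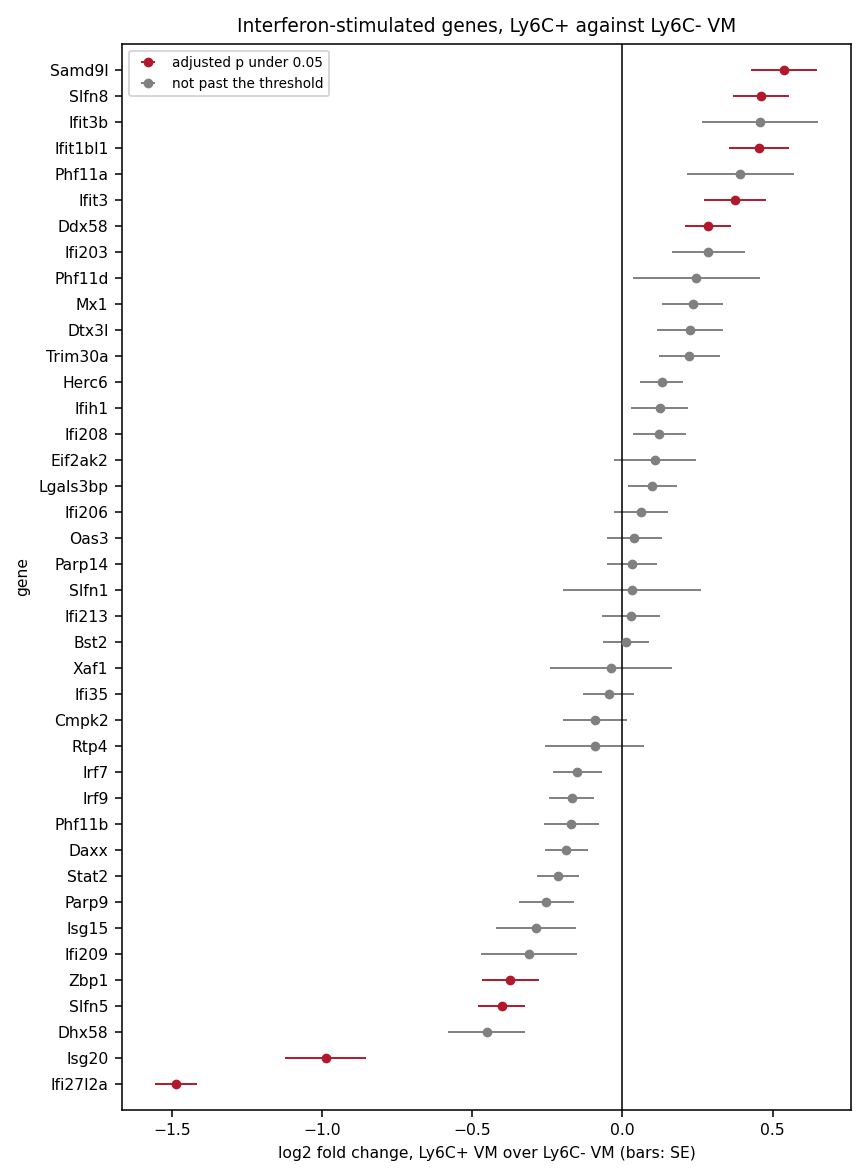
Log2 fold change of each member in Ly6C+ over Ly6C- VM cells (horizontal axis, bars are SE of the edgeR estimate), ordered by size. Red points passed an adjusted p of 0.05, and grey points did not. Ifi27l2a and Isg20 lie far below 0, while most members lie within 0.5 of it on either side.

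All 4 Ly6C+ libraries lay above both Ly6C- libraries for 7 members (22.9% of all genes) and below them for 7 (24.9% of all genes). Calls moved with single libraries, over the whole table as among the members. The fits without a Ly6C- library compare groups of a single Sca-1 gate, so they also leave out Ly6C+ libraries of the other gate. Genes called in either direction, 3240 with all libraries, were 2039 without Ly6C+ Sca-1+ A, 2260 without Ly6C+ Sca-1+ B, 4381 without Ly6C+ Sca-1- A, 4120 without Ly6C+ Sca-1- B, 1126 without Ly6C- Sca-1+ and 1370 without Ly6C- Sca-1-. Members called higher were 3 without Ly6C+ Sca-1+ A, 0 without Ly6C+ Sca-1+ B, 9 without Ly6C+ Sca-1- A, 3 without Ly6C- Sca-1+ and 0 without Ly6C- Sca-1-. Members called lower were 2 without Ly6C+ Sca-1+ A, Ly6C- Sca-1+ or Ly6C- Sca-1-, and 7 without Ly6C+ Sca-1- B. The 2 calls left in the first 3 cases were Ifi27l2a and Isg20. Without Ly6C- Sca-1-, where Ly6C+ Sca-1+ was set against Ly6C- Sca-1+ VM, the value of Ifit3 was 0.09. The authors' deposited table, which has Ly6C- over Ly6C+ cells, called 5 of 40 members, 3 higher and 2 lower in Ly6C- cells, and 3244 of its 15609 genes, 1923 higher and 1321 lower. Of the markers of other cells, 7 of 9 dendritic and MHC class II and 4 of 4 CD4 T cell markers were called lower in Ly6C+ cells, and their part in the members' differences was not tested.

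Against naive cells (1 library), VM cells (6 libraries) had a higher level of Mx1 and a lower level of Ifi213, and the median of the list was near 0. By edgeR 2 of 40 members passed (5.39% of all genes), 1 higher and 1 lower, against 3.92% and 1.48% of all genes, and the median log2 fold change was 0.01 with 21 of 40 positive. Mx1 (Gene ID 17857, chromosome 16, 97447035 to 97462906) was at 26.1 to 49.6 CPM in the 6 VM libraries with a median of 42.8 CPM, against 20.2 CPM in naive cells. It was higher by 0.95 ± 0.14 (edgeR adjusted p = 0.016), every VM library lay above the naive library, and it passed in all 13 alternatives. Ifi213 (Gene ID 623121, chromosome 1, 173566280 to 173599348) was at 310 to 382 CPM in the 6 VM libraries, with a median of 341 CPM, against 512 CPM in naive cells (-0.59 ± 0.11, edgeR adjusted p = 0.043). All 6 lay below the naive library, but the call was lost without Ly6C+ Sca-1+ A (-0.57), Ly6C+ Sca-1+ B (-0.61) or Ly6C- Sca-1+ (-0.59).

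Without passing the test, Phf11a was at 4.91 to 11.1 CPM in the VM libraries, against 4.17 CPM in naive cells (0.90 ± 0.24, edgeR adjusted p = 0.099). Ifit1bl1 was at 37.4 to 81.9 CPM in the VM libraries, against 81.1 CPM in naive cells (-0.51 ± 0.12, edgeR adjusted p = 0.069). All 6 VM libraries lay above naive for 6 members and below it for 4, each against 18.7% of all genes. DESeq2 called 3 members higher and 2 lower, against 6.30% and 2.56% of all genes.

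Against true memory cells (1 library), VM cells had less Phf11a, and the other 39 members did not pass (4.57% of all genes did). Phf11a (Gene ID 219131, chromosome 14, 59276913 to 59297564) was at 4.91 to 11.1 CPM in the 6 VM libraries, with a median of 9.08 CPM, against 19.7 CPM in true memory cells. It fell by 1.33 (SE 0.20, edgeR adjusted p = 0.016) and passed in all 13 alternatives, with every VM library below the true memory library. Of its 101-base windows 7.89% occur in other genes. The median of the 40 members was -0.07, with 13 positive, against 47.3% of all genes. It was -0.12 without Ly6C- Sca-1+ (11 positive) and -0.01 without Ly6C- Sca-1- (20 positive). Of all genes, 4.43% were called lower and 0.139% higher. All 6 VM libraries lay above true memory for 2 members (11.8% of all genes) and below it for 6 (15.4% of all genes). The 9 dendritic and MHC class II markers were all called lower in VM than in true memory cells, with Clec9a at 0.178 to 2.67 CPM in the VM libraries, against 74.4 CPM in true memory cells. Their part in the Phf11a difference was not tested.

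True memory cells set against naive cells (1 library each, no p-value) were at least 1.5-fold higher for Mx1, Phf11a and Phf11b (3 of 40, against 16.2% of all genes) and lower for 0 members (7.27% of all genes). Phf11a was at 19.7 CPM in true memory cells, against 4.17 CPM in naive cells, a log2 difference of 2.23. Mx1 was at 48.6 CPM in true memory cells, against 20.2 CPM in naive cells, a log2 difference of 1.27. The median difference of the 40 members was 0.07, with 24 positive.

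**Figure D5:**
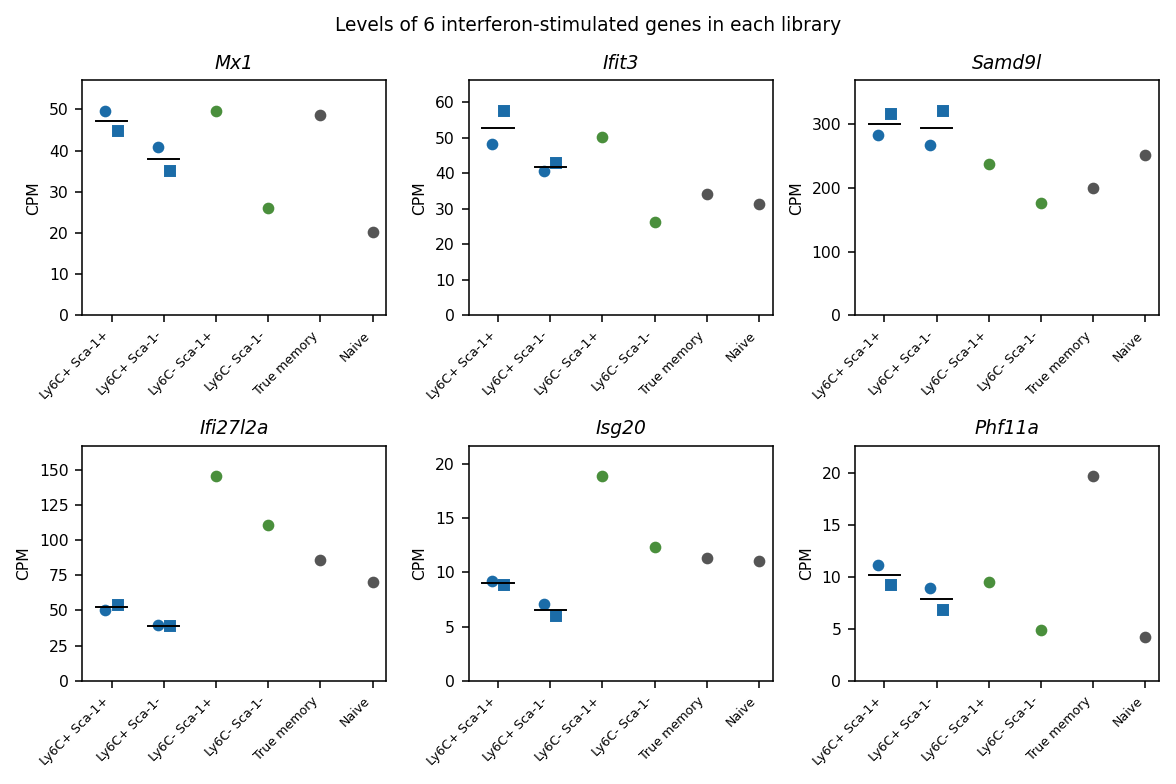
CPM of 6 members in every library. Blue points are Ly6C+ VM (circles for A, squares for B, black lines for the mean of the 2), green points are Ly6C- VM and grey points are true memory and naive cells. Ifi27l2a and Isg20 separate Ly6C- from Ly6C+ VM, Phf11a is highest in true memory cells, and Mx1 and Ifit3 are higher in each Sca-1+ library than in its Sca-1- counterpart.

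Upstream of these genes, the receptor chain gene Ifnar1 was level at 185 to 212 CPM in all 8 libraries. Of 13 receptor and proximal signalling genes in the table, 0 passed by edgeR between Sca-1+ and Sca-1- VM (median 0.02, 8 positive), and 1 had an unadjusted p under 0.05. In Ly6C+ against Ly6C- VM 3 of the 13 were called higher and 1 lower, against 8.88% and 12.6% of all genes. Ifngr1, a chain of the interferon gamma receptor, had 333 to 378 CPM in Ly6C+ VM, against 196 and 201 CPM in the Ly6C- libraries (0.85 ± 0.08, edgeR adjusted p = 0.0018). Ifngr2, the other chain, had 2.29 to 10.6 CPM in Ly6C+ VM, against 20.9 and 26.3 CPM in the Ly6C- libraries (-2.08 ± 0.28, edgeR adjusted p = 0.0056). The 2 chains moved in opposite directions against naive cells too, with Ifngr1 at 0.93 ± 0.11 and Ifngr2 at -2.04 ± 0.31 (edgeR adjusted p = 0.0074 and 0.020), and Ifnar2 was higher by 0.55 ± 0.10 (edgeR adjusted p = 0.034).

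Of 76 other interferon-stimulated genes named, 57 were in the table. In Sca-1+ over Sca-1- VM 44 of 57 were positive, against 52.5% of all genes, with a median of 0.12. By edgeR 1 passed, Ly6a itself, which the sort gate selects: it was at 29.4, 39.8 and 62.3 CPM in Sca-1+ VM, against 1.91, 2.54 and 3.45 CPM in Sca-1- VM. In Ly6C+ against Ly6C- VM 12 of the 57 were called higher and 5 lower, against 8.88% and 12.6% of all genes. Ifitm10 had 55.3 to 72.0 CPM in Ly6C+ VM, against 18.4 and 15.0 CPM in the Ly6C- libraries (1.87 ± 0.14, edgeR adjusted p = 0.00084). Ms4a4c, a tetraspan membrane protein gene, had 202 to 228 CPM in Ly6C+ VM, against 100.3 and 102 CPM in the Ly6C- libraries (1.08 ± 0.09, edgeR adjusted p = 0.0012). The ISG15-conjugating enzyme gene Ube2l6 was low throughout, with 0.258 to 0.988 CPM in Ly6C+ VM, against 4.39 and 1.98 CPM in the Ly6C- libraries.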

How the data were processed

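Bulk RNA-seq libraries were TruSeq stranded mRNA, read as paired 101 bp, with reads checked in FastQC 0.11.7 and trimmed in Trimmomatic 0.38, per the labels. Per the submitters' processing notes the build was mm10, with edgeR and R 3.6.0 among the tools. Neither the aligner nor the read counter with its strand setting is given in the sources used here. The authors deposited raw counts and TPM per gene, and the counts were used for every comparison. TPM of the 4 libraries without a replicate gave levels between genes. For 3 comparisons the authors also deposited a signed fold change, here called a score, with p-values; these are quoted only as theirs. The other 20 columns of values per sample (FPKM, log2 and the remaining TPM) were not used.

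Genes passing filterByExpr by group (15112) were scaled by TMM and fitted in 1 edgeR 4.0.16 quasi-likelihood model (R 4.3.3) with 1 coefficient per group over all 8 libraries. The spread came from the 2 replicated groups (2 residual and 4.14 prior degrees of freedom, common biological coefficient of variation 0.151), and a library without a replicate was taken to have the same spread. Calls needed an adjusted p under 0.05 (Benjamini-Hochberg, over all genes), and values after named members are log2 fold changes ± SE from that fit. Where several groups made up a side of a comparison, each group weighed alike, whatever its number of libraries. Libraries compared 1 against 1 were given log2 CPM differences with a prior count of 2. The fitting script was tested on simulated data. DESeq2 1.42.0, limma-voom (limma 3.58.1), RLE scaling, other filters, a block by column suffix and leaving out each library were alternatives.

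The members and lists were chosen with earlier results of these data known. All 40 members are accounted for. Results for 1 further gene are not reported here. Values by library are given for all members of role groups of 3 or fewer and, in larger groups, for the 2 with the smallest p where a member was called or the 2 with the largest change. Other members were added after their values were seen. Of genes outside the list, up to 3 per list and comparison with the smallest p are named. Promoter windows and coordinates are from RefSeq (GRCm38.p6), matched by Gene ID for 15570 of 15609 genes. Windows of 101 bases shared between genes were counted in GENCODE transcripts.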

Additional observations from a re-analysis of the deposited data

How the results depend on the processing

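For Sca-1+ against Sca-1- VM, members called higher were 5 by DESeq2 and 0 to 10 when a library was left out. For Ly6C+ against Ly6C- VM the median of the list was 0.00 to 0.08 when a Ly6C+ library was left out. It was 0.15 without Ly6C- Sca-1+ and -0.06 without Ly6C- Sca-1-, each within a single Sca-1 gate. For VM against naive they were 3 higher and 2 lower by DESeq2, 0 lower with no low count filter, and 1 to 4 higher and 0 to 2 lower when a library was left out. For VM against true memory the median was -0.12 to -0.01 when a library was left out. In these comparisons members called moved with the library left out, as did genes called over the whole table. The cause was not tested. Over all 15112 genes, DESeq2 called 260 higher in Sca-1+ against Sca-1- VM. In VM against naive it called 952 higher and 387 lower. With no low count filter, edgeR called 186 of 15609 genes lower in VM against naive, against 223 of 15112 in the main fit.

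The A minus B differences of the 2 replicated groups were correlated with each other (r = 0.354 over 15112 genes). But the suffix is not described and only 2 groups carry it, so a replicate block by column suffix was an alternative. With the lone libraries put with A or with B, it called 23 members (979 of all 15112 genes) higher in Sca-1+ against Sca-1- VM, 8 (403) within Ly6C+ VM, and 2 (137) in the test of the difference between the Ly6C- and Ly6C+ pairs. In Ly6C+ against Ly6C- VM it called 7 (3151) higher and 16 (3450) lower with A, and 13 (3024) higher and 8 (3630) lower with B. Against naive it called 8 (2187) higher and 9 (1832) lower with A, and 9 (2189) higher and 5 (1974) lower with B. Against true memory it called 1 (783) higher and 7 (1821) lower with A, and 5 (650) higher and 7 (1860) lower with B. Putting the lone libraries with B was added after seeing the data.

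Some members changed sign when a library was left out, as the counts of positive members show. The smallest member count was 197.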

Other observations

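Genes associated with interferon gamma were also positive in Sca-1+ over Sca-1- VM for 28 of 30 (52.5% of all genes), the median being 0.19. By edgeR 0 of them were called, and 9 had an unadjusted p under 0.05, all higher (6.07% of all genes). The GTPase gene Iigp1, which acts against intracellular parasites, was at 11.9, 13.0 and 22.5 CPM in Sca-1+ VM (Ly6C+ A, Ly6C+ B and Ly6C-), against 4.12, 4.52 and 11.8 CPM in Sca-1- VM (1.23 ± 0.13, edgeR adjusted p = 0.064). In Ly6C+ against Ly6C- VM 1 of the 30 was called higher and 8 lower, against 8.88% and 12.6% of all genes. Irf8, a transcription factor of myeloid cells and lymphocytes, had 17.2 to 24.3 CPM in Ly6C+ VM, against 50.8 and 47.6 CPM in the Ly6C- libraries (-1.15 ± 0.13, edgeR adjusted p = 0.0028), and was at 302.5 CPM in the true memory library.

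Of 9 interferon genes named, Ifng was in the table. It was at 18.9 to 73.0 CPM in the 6 VM libraries, with both A libraries of Ly6C+ VM above both B libraries, against 1.46 CPM in naive cells (4.78 ± 0.88, edgeR adjusted p = 0.035).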
